A study of Homo sapiens with 9 samples.

Results

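The mRNAs of 10 heterogeneous nuclear ribonucleoprotein (hnRNP) genes were followed through nuclear and cytoplasmic RNA after combined RNAi of WTAP and KIAA1429. The members were a list of names, set by no threshold on their values but chosen with earlier results of these data known: HNRNPA1, HNRNPA2B1, HNRNPC, HNRNPD, HNRNPDL, HNRNPH1, HNRNPK, HNRNPL, HNRNPM and HNRNPU. All their transcripts in the deposited tables were used, which gave 172 of 215170 transcripts and 10 of 56349 genes. The cells were HEK293 by the labels, a human embryonic kidney line, and its derivative 293T by the study's methods. They received either a control siRNA or siRNAs against WTAP and KIAA1429 (VIRMA), which are subunits of the nuclear complex that writes N6-methyladenosine (m6A) into mRNA. The 9 samples were 3 control nuclear, 3 RNAi nuclear, 1 control cytoplasmic and 2 RNAi cytoplasmic libraries from poly(A) RNA. Nothing in the labels says whether the replicates were separate cultures, so every p-value measures only the spread between these libraries, which may be technical. The control cytoplasm was a single library, and its spread was taken from the other groups. The study asked whether the m6A complex affects export of mRNA from the nucleus, and the comparison of nucleus to cytoplasm ratios addresses this.

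hnRNPs coat nascent transcripts in the nucleus, where they direct splice site choice, 3′ end formation, packaging and export. Many shuttle between nucleus and cytoplasm, and several keep their own amount in check by splicing their pre-mRNA into forms with a retained intron or a premature stop codon. Forms of the first kind tend to stay in the nucleus, and forms of the second kind are degraded in the cytoplasm by nonsense-mediated decay (NMD).

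Parts of the member pre-mRNAs kept in such forms are shown here, from transcripts called higher in the nucleus of RNAi cells, as examples of what these forms contain. They were read from GRCh37, the build of hg19, 5′ to 3′ along the mRNA, and only from transcripts whose deposited length equals the length in the annotation (GENCODE version 44 lifted to GRCh37). Capitals mark bases absent from the coding transcript used as reference for that gene, with 20 bases of flanking sequence in lower case. The first is an exon of 70 bases inside an intron of HNRNPL, carried by the NMD transcript HNRNPL-202, and its length is not a multiple of 3. The next 4 are the shortest whole introns kept in HNRNPL-206 (111 bases), HNRNPD-210 (112 bases), HNRNPH1-210 (56 bases) and HNRNPH1-227 (92 bases), each of which also keeps other whole or partial introns. The intron of 111 bases is kept in the coding transcript HNRNPL-207 too, the exon of 70 bases lies within longer intron parts of HNRNPL-203 and HNRNPL-206, and the intron of 92 bases is shared with other HNRNPH1 transcripts. The last is the final 80 bases, with the acceptor site, of the intron part kept in HNRNPK-203.
HNRNPL-202, chr19:39332233-39332342, minus strand: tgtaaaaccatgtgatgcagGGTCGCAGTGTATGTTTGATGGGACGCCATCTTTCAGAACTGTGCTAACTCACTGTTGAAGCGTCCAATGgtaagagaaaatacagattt
HNRNPL-206, chr19:39330997-39331147, minus strand: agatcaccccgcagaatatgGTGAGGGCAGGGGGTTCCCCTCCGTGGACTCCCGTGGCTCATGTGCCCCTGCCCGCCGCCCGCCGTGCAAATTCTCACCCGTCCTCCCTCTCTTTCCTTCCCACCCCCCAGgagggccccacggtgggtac
HNRNPD-210, chr4:83277817-83277968, minus strand: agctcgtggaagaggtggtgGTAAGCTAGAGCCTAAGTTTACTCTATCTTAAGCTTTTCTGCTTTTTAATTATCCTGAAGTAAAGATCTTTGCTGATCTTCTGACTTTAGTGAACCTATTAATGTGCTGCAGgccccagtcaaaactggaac
HNRNPH1-210, chr5:179044914-179045009, minus strand: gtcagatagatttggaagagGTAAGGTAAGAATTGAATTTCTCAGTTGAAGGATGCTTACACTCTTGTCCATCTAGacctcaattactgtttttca
HNRNPH1-227, chr5:179043940-179044071, minus strand: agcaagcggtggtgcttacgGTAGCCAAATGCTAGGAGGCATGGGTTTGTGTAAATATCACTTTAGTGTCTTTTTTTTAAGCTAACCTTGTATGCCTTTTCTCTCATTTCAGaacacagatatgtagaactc
HNRNPK-203, chr9:86590401-86590500, minus strand: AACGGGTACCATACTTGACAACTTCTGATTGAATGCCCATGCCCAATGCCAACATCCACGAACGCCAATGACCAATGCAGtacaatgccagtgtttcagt
All 6 lie between coding exons of that reference transcript.

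The siRNAs lowered both targets. WTAP was at 24.1, 27.6 and 23.0 CPM (counts scaled to the library) in the control nuclear samples and at 12.2, 14.3 and 15.6 CPM after RNAi, and in the cytoplasm it was at 37.5 CPM in the control sample and at 10.8 and 11.9 CPM after RNAi. Its fitted nuclear log2 change was -0.83 (FDR 0.0169) and VIRMA's was -1.08 (FDR 0.0314). Total estimated counts ran from 11627403 to 19036141 per sample. PAX2, NEFM and INA, which HEK293 cells are known to express, were present in every sample, and 1 further listed marker was not analysed here, while PTPRC and ALB, of leukocytes and hepatocytes, had at most 3.03 estimated counts. COL1A1, a fibroblast collagen listed with them, was at 56.5 to 91.5 CPM. PECAM1, of endothelium, was on the same list, and its level is not given here. The nuclear RNAs MALAT1, NEAT1 and KCNQ1OT1 summed to between 31.8 and 37.8 TPM in the 6 nuclear samples, to 4.55 TPM in the control cytoplasm and to 1.88 and 2.07 TPM in the RNAi cytoplasm. The control cytoplasm thus held more of these RNAs than the RNAi cytoplasm did. The 9 cytoplasmic markers, 5 of them mitochondrial mRNAs, were not depleted from the nuclei: they summed to between 148000 and 223000 TPM there against 96500 to 142000 TPM in the cytoplasm.

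The members differed widely in abundance. On the TPM scale, which corrects for transcript length, HNRNPL (494.7 ± 79.6 TPM, SD, n = 3) and HNRNPA1 (489.8 ± 52.3) led in the control nucleus and did not differ beyond their spread. HNRNPK (215.3 ± 26.7), HNRNPC (189.7 ± 23.8) and HNRNPU (150.2 ± 44.3) followed, each neighbour within the spread of the next. HNRNPH1 (80.0 ± 22.4), HNRNPA2B1 (73.8 ± 14.3) and HNRNPDL (52.6 ± 7.3) came next, and HNRNPM (37.7 ± 12.6) and HNRNPD (24.7 ± 10.5) were lowest. In the RNAi cytoplasm HNRNPA1 was first by TPM at 685.9 ± 118 TPM (n = 2) and HNRNPD was last at 26.5 ± 6.26 TPM. By CPM HNRNPL was first there, at 743.9 ± 39.5 CPM against 615.7 ± 10.6 CPM for HNRNPA1. By TPM HNRNPH1, sixth in both nuclear groups and at rank 7 in the control cytoplasm, was eighth in the RNAi cytoplasm at 34.9 ± 4.32 TPM. This was within the spread of HNRNPDL, just above it at 36.84 ± 8.51 TPM.

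**Figure D1:**
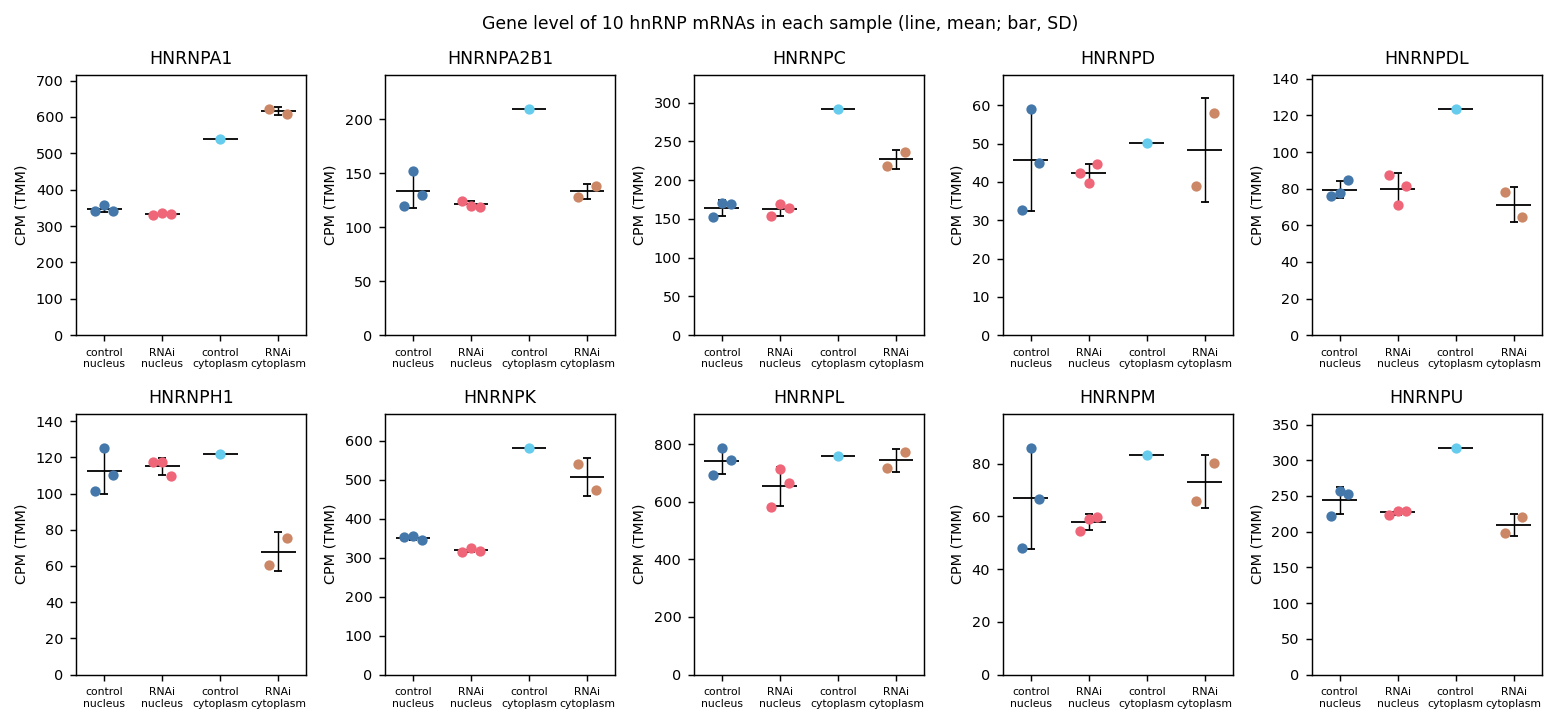
Gene level of each member in every sample, in CPM after TMM scaling, on axes that start at 0; each point is 1 library, the line is the group mean and the bar its SD, with none for the single control cytoplasmic library. The RNAi cytoplasmic values of HNRNPH1 (60.4 and 75.4 CPM) lie below all other HNRNPH1 values, and those of HNRNPDL, HNRNPA2B1 and HNRNPU lie below the control cytoplasmic value.

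The comparisons that describe the response to RNAi were the change in the nucleus, the change in the cytoplasm and the difference between them, which is the change of the nucleus to cytoplasm ratio. A gene was called when its FDR was under 0.1 and its log2 change was over 0.5 in size.

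In the nucleus 0 of 10 members were called by edgeR, beside 4.89% of all 16181 genes tested. No member had an unadjusted p under 0.05, and DESeq2 and limma on log2(TPM + 1) also called 0. The log2 changes ran from -0.21 for HNRNPM to 0.04 for HNRNPH1, with a median of -0.11 against 0.00 over all genes.

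In the ratio, 3 of 10 members rose, HNRNPH1, HNRNPDL and HNRNPA2B1, and 0 fell, beside 10.4% of all genes called higher. HNRNPH1 encodes a splicing regulator that binds runs of guanines. It was at 101.2, 125.3 and 110.2 CPM in the control nuclei and at 117.5, 117.7 and 109.8 CPM in the RNAi nuclei, and it was at 121.8 CPM in the control cytoplasm and at 60.4 and 75.4 CPM in the RNAi cytoplasm. The nuclear groups overlapped, and both RNAi cytoplasmic samples were below every other sample. Its ratio rose by 0.88 on the log2 scale (SE 0.20, FDR 0.0207).

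HNRNPDL encodes a paralogue of HNRNPD that takes part in transcription and splicing. It was at 76.2, 77.6 and 84.8 CPM in the control nuclei, at 87.7, 70.9 and 81.5 CPM in the RNAi nuclei, at 123.8 CPM in the control cytoplasm and at 78.0 and 64.7 CPM in the RNAi cytoplasm. Again the nuclear groups overlapped, and the control cytoplasm was above all other samples. Its ratio rose by 0.80 (SE 0.20, FDR 0.0275).

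HNRNPA2B1 encodes a core hnRNP that binds RNA through paired RNA recognition motifs and has been described as a reader of m6A. It was at 120.0, 151.7 and 129.4 CPM in the control nuclei, at 124.5, 119.9 and 118.9 CPM in the RNAi nuclei, at 209.9 CPM in the control cytoplasm and at 128.3 and 138.0 CPM in the RNAi cytoplasm. Its ratio change was 0.51 (SE 0.18, FDR 0.0874), just past both limits. This call was lost when any of 7 of the 8 libraries outside the control cytoplasm was left out, with FDR up to 0.175, and was kept without the second control nuclear library. With the replicate number as a block the value was 0.46, under the fold limit, and the call was lost. HNRNPU, a scaffold protein that binds RNA and chromatin, fell just short of the fold limit with a ratio change of 0.50 (SE 0.16, FDR 0.0655) and was called in 9 of 20 alternatives.

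HNRNPC, which binds uridine tracts and is kept in the nucleus, had a ratio change of 0.35 (SE 0.16, FDR 0.172). HNRNPA1, a shuttling splicing repressor, had the lowest value at -0.25 (SE 0.14, FDR 0.265), and its sign turned with library size scaling (0.04) and on the TPM scale (0.09). HNRNPK, HNRNPL, HNRNPM and HNRNPD lay between -0.16 and 0.06, with none called. For HNRNPM and HNRNPD, which had the widest errors (SE 0.32 and 0.37), the ratio change became 0.82 and 0.60 in limma on log2(TPM + 1), with FDR of 0.321 and 0.569. The median ratio change of the 10 members was 0.21, against -0.05 over all genes. Scaling by library size alone moved the all-gene median to 0.23 and the members' median to 0.49, and 93.2% of all called genes were then higher, against 56.9% with TMM. The nuclear RNAs MALAT1 (1.33, FDR 0.0936), NEAT1 (0.85, FDR 0.025) and KCNQ1OT1 (1.58, FDR 0.00987) rose in the same ratio, and their part in the members' values was not tested.

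**Figure D2:**
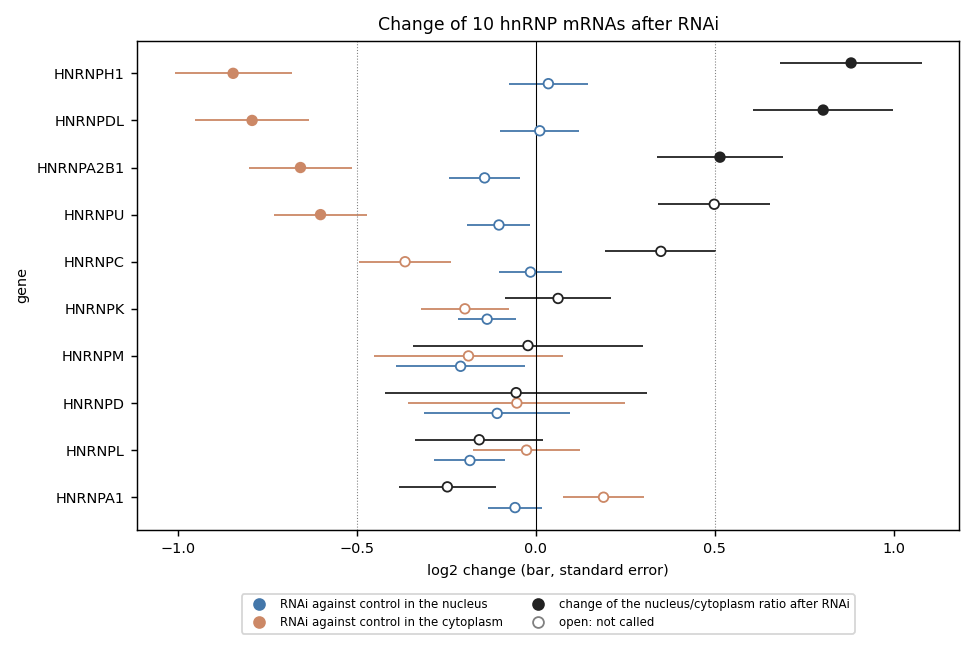
Log2 change of each member after RNAi in the nucleus, in the cytoplasm and in the nucleus to cytoplasm ratio, with standard errors; filled points were called, open points were not, and dotted lines mark the fold limit. All 10 nuclear values lie between -0.21 and 0.04, while the cytoplasmic values of the upper 4 genes lie between -0.85 and -0.60.

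The cytoplasmic comparison rests on the single control library. There 4 of 10 members fell, beside 14.2% of all genes: HNRNPH1 by 0.85 on the log2 scale (SE 0.16, FDR 0.00658), HNRNPDL by 0.79 (SE 0.16, FDR 0.00809), HNRNPA2B1 by 0.66 (SE 0.15, FDR 0.012) and HNRNPU by 0.60 (SE 0.13, FDR 0.0106). These correspond to 55.7%, 57.8%, 63.4% and 65.9% of the control level. HNRNPU was not called in limma on log2(TPM + 1) or log2(TPM + 0.1) (FDR 0.133 and 0.119). HNRNPU was at 317.4 CPM in the control cytoplasm and at 198.8 and 219.9 CPM after RNAi, while its nuclear samples ran from 222.4 to 257.6 CPM in control and from 223.6 to 229.6 CPM in RNAi cells. HNRNPC had a change of -0.37 (FDR 0.0704), short of the fold limit, and HNRNPA1 of 0.19 (FDR 0.268), from 540.2 CPM to 623.2 and 608.2 CPM. In the same comparison MALAT1 changed by -1.20 (FDR 0.0642) and KCNQ1OT1 by -0.79 (FDR 0.0559), both nuclear RNAs, and the part of such RNA in the members' values was not tested. The value of NEAT1, also on that list, is not given here for this comparison. CPM values are relative to the other RNAs of a library. In these bulk samples, fewer cells that hold an mRNA and less of it per cell cannot be told apart.

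Comparing the fractions directly, 5 members were lower in the nucleus of control cells, beside 22.7% of all genes, and 0 were higher. They were HNRNPC (log2 change -0.83, SE 0.12), HNRNPK (-0.73, SE 0.11), HNRNPA2B1 (-0.65, SE 0.14), HNRNPA1 (-0.64, SE 0.10) and HNRNPDL (-0.64, SE 0.15), with FDR between 0.000356 and 0.00557. In RNAi cells 2 members were lower, HNRNPA1 (-0.89, SE 0.08) and HNRNPK (-0.67, SE 0.09), beside 24.9% of all genes. HNRNPK encodes a protein that binds cytidine-rich RNA through KH domains, and it was at 315.8, 325.6 and 317.8 CPM in the RNAi nuclei and at 541.7 and 472.7 CPM in the RNAi cytoplasm. On the log2(TPM + 1) scale its difference was -0.08 (FDR 0.753) and that of HNRNPA1 was -0.44 (FDR 0.066), and neither was called. HNRNPH1 alone was higher in the RNAi nucleus (0.76, SE 0.13, FDR 0.000566), beside 32.9% of all genes, and in control cells its difference was -0.12 (SE 0.16, FDR 0.551). These comparisons share libraries with the ratio change above.

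The gene totals hide a difference in which transcripts were counted. Transcripts were grouped by their annotated class: protein coding, NMD, retained intron, and other. Within RNAi cells, 33 of the 100 member transcripts tested took a larger part of their gene in the nucleus, beside 13.8% of all 38779 transcripts tested, and 4 took a smaller part, beside 1.91%. Retained intron transcripts made up 21 of the 33, out of 29 tested, beside 40.9% of all retained intron transcripts. The others were 7 of 54 protein coding (5.32% of all), 3 of 15 NMD (11.1% of all) and 2 of 2 other transcripts (15.2% of all). In 19 of the 33, both RNAi cytoplasmic libraries had under 3 counts, so a transcript could pass the count filter through the nuclear libraries alone, where it was high, and these counts are a description. With at least 10 counts in every sample, 43 member transcripts were tested, and 7 were called higher and 2 lower, beside 6.3% and 2.2% of all. By whole class, 11 of 29 member classes were higher in the nucleus, beside 22.3% of all classes, and 5 were lower, beside 3.64%. Salmon divides reads among transcripts that share exons, so a value of 1 transcript is an estimate, and a retained intron transcript also takes reads of unspliced pre-mRNA.

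**Figure D3:**
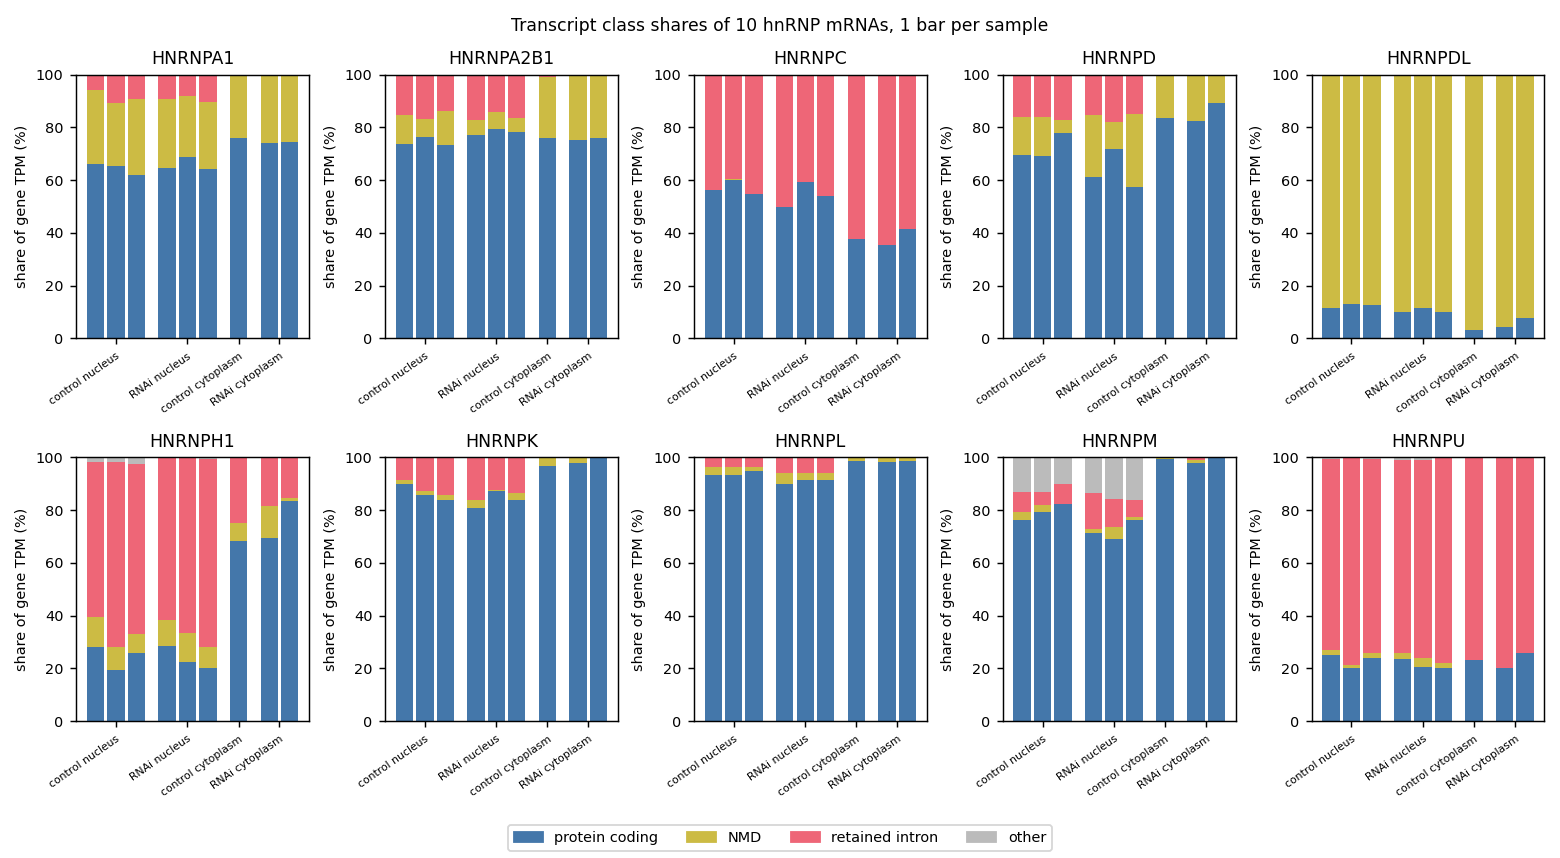
Share of each member's TPM in transcripts annotated as protein coding, NMD, retained intron or other, with 1 stacked bar per library. The retained intron share of HNRNPH1 lies between 59.0% and 71.3% in the 6 nuclear libraries and between 15.4% and 24.8% in the 3 cytoplasmic ones. Most of that cytoplasmic share is the short transcript HNRNPH1-247, of which only 69 bases are intronic in the reference transcript.

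In HNRNPH1 the retained intron share separated the fractions. Retained intron transcripts held 59.0%, 70.3% and 64.2% of its TPM in the control nuclei, 61.5%, 66.1% and 71.3% in the RNAi nuclei, 24.8% in the control cytoplasm and 18.4% and 15.4% in the RNAi cytoplasm. Its protein coding transcripts held 19.3% to 28.7% in the nuclei and 68.2% to 83.5% in the cytoplasm. The fractions did not overlap, whereas the nuclear control and RNAi samples did. In TPM, its protein coding transcripts stood at 61.6 in the control cytoplasm and at 22.1 and 31.7 in the RNAi cytoplasm, beside 16.8 to 20.1 in the control nuclei and 20.9 to 29.2 in the RNAi nuclei. HNRNPH1-227 had 543, 491 and 440 estimated counts in the RNAi nuclei and 3.3 and 3.6 in the cytoplasm, a CPM ratio of 142 (95% exact interval 68.8 to 354, counting error only). HNRNPH1-210, which keeps the intron of 56 bases printed above, had 58.3, 43.3 and 63.4 counts in the nuclei and 0 in both cytoplasmic libraries, at least 37.1-fold higher when 3 counts over the group are set as the floor. HNRNPH1-222, another retained intron transcript, was likewise at 0 in both and at least 44.3-fold higher. Both transcripts could pass the count filter through the nuclear libraries alone, so these floors are a description. The coding transcripts HNRNPH1-203 and HNRNPH1-204 are close models, each with 14 exons and a coding sequence of 1347 bases. In the RNAi nuclei the first had 0.02, 186.8 and 114.8 counts and the second 165.6, 28.8 and 94.9. The split of reads between them was thus unstable, and their values are not independent. They took a smaller part in the nucleus, with usage changes of -2.21 (SE 0.73, FDR 0.0309) and -2.51 (SE 0.75, FDR 0.0149). The first was lost without the first RNAi cytoplasmic or RNAi nuclear library 1 or 3 (FDR 0.119 to 0.237), and the second without the second library of either RNAi fraction (FDR 0.1 and 0.105). The most abundant HNRNPH1 transcript by mean share, the short retained intron form HNRNPH1-247 of 598 bases, did not pass (0.87, SE 1.11, FDR 0.902).

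**Figure D4:**
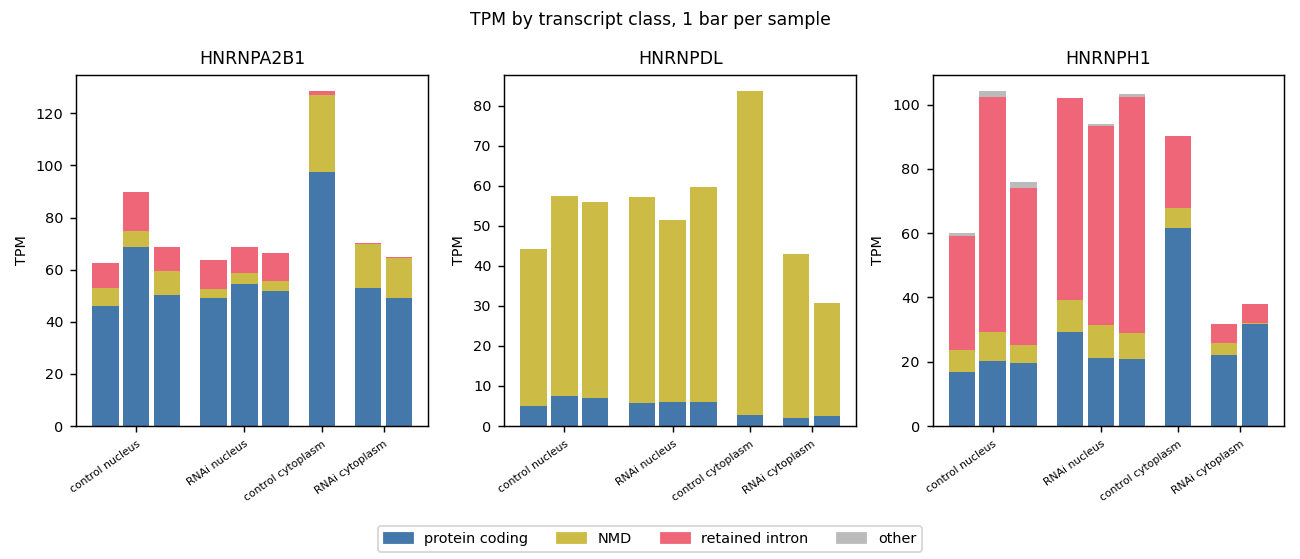
TPM of HNRNPA2B1, HNRNPDL and HNRNPH1 split by transcript class, with 1 stacked bar per library. In HNRNPH1 the protein coding part falls from 61.6 TPM in the control cytoplasm to 22.1 and 31.7 TPM in the RNAi cytoplasm, and the retained intron part dominates the nuclear bars.

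HNRNPA2B1 moved in both directions. Its retained intron class held 13.7% to 16.9% of TPM in the control nuclei and 14.4% to 17.3% in the RNAi nuclei, and under 1% in each cytoplasmic library. HNRNPA2B1-201, annotated as coding and 3664 bases long, had 440, 327 and 408 counts in the RNAi nuclei and 21.7 and 8.5 in the cytoplasm, a CPM ratio of 26.4 (95% exact interval 18.4 to 39.3). HNRNPA2B1-205 had a ratio of 28.1 (12.7 to 77.3). Its deposited length was 1220 bases against 4942 in the annotation, so its retained intron label describes a longer model than the one counted. HNRNPA2B1-203, labelled NMD, held 23.0% of TPM in the control cytoplasm and 24.2% and 23.8% in the RNAi cytoplasm, but 11.2%, 6.7% and 13.1% in the control nuclei and 5.5%, 6.3% and 5.3% in the RNAi nuclei. Its usage in the nucleus was lower by 2.34 on the log2 scale (SE 0.31, FDR 3.07e-05). Its annotated coding sequence of 1059 bases is as long as those of the coding transcripts HNRNPA2B1-201 and HNRNPA2B1-202. The NMD label of HNRNPA2B1-203 therefore does not mark a shortened coding sequence, and whether it is degraded was not tested.

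In HNRNPDL the transcripts labelled NMD, mainly HNRNPDL-202 and HNRNPDL-203, held 86.9% to 88.7% of its TPM in the control nuclei and 88.4% to 90.1% in the RNAi nuclei. They held 96.7% in the control cytoplasm and 95.5% and 92.2% in the RNAi cytoplasm. HNRNPDL-202 was counted with a deposited length of 1120 bases against 1402 in the annotation. The lengths of HNRNPDL-203 and HNRNPDL-204 differ from the annotation too. Their labels thus describe other models than those counted, so these shares cannot be read as shares of NMD targets. Whether the counted transcripts are such targets was not tested. HNRNPDL-202 had a usage change between the fractions of 0.03 (SE 0.27, FDR 1.0). The summed TPM of the transcripts labelled NMD was 80.8 in the control cytoplasm and 40.9 and 28.4 after RNAi. HNRNPDL-204, annotated as coding, had 89.1, 53.3 and 84.5 counts in the RNAi nuclei and 0 in the RNAi cytoplasm, at least 51.0-fold higher in the nucleus. It too could pass the count filter through the nuclear libraries alone, so this floor is a description.

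HNRNPL encodes a splicing regulator that binds CA-rich RNA and is known to control inclusion of a premature stop exon in its own mRNA. HNRNPL-202, with the 70-base exon printed above, held 2.8%, 2.9% and 1.8% of TPM in the control nuclei, 4.0%, 2.8% and 2.5% in the RNAi nuclei, 1.0% in the control cytoplasm and 1.3% and 1.1% in the RNAi cytoplasm. Every nuclear value was above every cytoplasmic one, and its CPM ratio in RNAi cells was 2.56 (95% exact interval 2.22 to 2.96), with a usage change of 1.30 (SE 0.29, FDR 0.0506). That call was lost without any one of 3 libraries, the first or second RNAi cytoplasmic or the first RNAi nuclear, with FDR up to 0.237. HNRNPL-206, which keeps the intron of 111 bases, had 354, 295 and 452 counts in the RNAi nuclei and 22.2 and 12.4 in the cytoplasm, a ratio of 21.2 (15.2 to 30.6). HNRNPL-207, which keeps the same intron, held 5.1% of TPM in the control cytoplasm, 2.7% and 2.8% in the RNAi cytoplasm and 0.8% to 1.6% in the nuclei, with a usage change of -1.14 (SE 0.39, FDR 0.305) that passed in limma and with at least 10 counts in every sample. HNRNPL-210, the main coding transcript at 81.6% of TPM on average, had a usage change of -0.08 (SE 0.16, FDR 1.0).

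HNRNPD encodes AUF1, which binds AU-rich elements in mRNAs. HNRNPD-210 held 14.8% to 17.9% of TPM in the 6 nuclear libraries and under 0.3% in the cytoplasmic ones, with 258, 184 and 242 counts in the RNAi nuclei against 2.3 and 2.4, a ratio of 92.4 (39.4 to 286). HNRNPK-203 held 5.8% to 12.7% in the nuclei and at most 0.2% in the cytoplasm, a ratio of 73.5 (24.9 to 358) that rests on 3 cytoplasmic counts. HNRNPM encodes a splicing factor that binds GU-rich RNA, and HNRNPM-216, of the class other, had 88.2, 80.3 and 85.5 counts in the RNAi nuclei and 1.1 in each cytoplasmic library, a ratio of 85.7 (23.5 to 711). HNRNPU-201, a coding transcript of HNRNPU, took a smaller part in the nucleus (-0.96, SE 0.21, FDR 0.0209), a call lost without the second RNAi cytoplasmic library (FDR 0.234).

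HNRNPC-206, annotated as retained intron but only 604 bases long, held 57.3% to 63.1% of HNRNPC TPM in the cytoplasm and 39.3% to 49.4% in the nuclei, and the retained intron class of HNRNPC was lower in the nucleus of RNAi cells (-0.68, SE 0.13, FDR 0.00822). HNRNPU-207, with a deposited length of 561 bases against 5273 in the newer annotation, held 42.0% to 67.5% of HNRNPU TPM in all 9 libraries. HNRNPA1-205, labelled NMD, held 23.8% to 26.0% of HNRNPA1 TPM in the cytoplasm and 17.3% to 23.0% in the nuclei, and HNRNPA1-206, a coding fragment of 530 bases, held the largest average share at 35.5%. The annotated coding sequence of HNRNPA1-205 has 960 bases, and whether that transcript is degraded was not tested. In all, 48 of the 172 member transcripts had a deposited length other than the annotated one, so their class describes a longer or shorter model than the one that was counted.

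RNAi itself moved few of these shares. In the nucleus edgeR called 0 of 100 member transcripts, beside 0.591% of all, and 0 of 29 member classes, beside 0.122%. At an unadjusted p under 0.05 there were 7 transcripts and 3 classes, beside 1399 of all 38779 transcripts and 583 of all 16334 classes. With limma's diffSplice 4 member transcripts and 3 member classes were called, beside 480 transcripts and 310 classes of all. The retained intron class of HNRNPL was among them. It held 3.74%, 3.64% and 3.47% of TPM in the control nuclei and 5.97%, 5.88% and 6.00% in the RNAi nuclei, without overlap, and its usage change was 0.71 (SE 0.16) with FDR 0.285 in edgeR and 0.0681 in limma. The NMD class of HNRNPA2B1, at 11.2%, 6.7% and 13.1% against 5.5%, 6.3% and 5.3%, likewise did not overlap, with -0.87 (SE 0.18), FDR 0.285 in edgeR and 0.0857 in limma. Among the 33 class shares of the members, 7 did not overlap between the nuclear groups, beside 12.4% of all gene and class pairs. With 3 against 3 samples the exact two-sided permutation test cannot give a p below 0.1, which all 7 had, and the smallest adjusted p was 0.471. In the ratio change edgeR called 1 member transcript, beside 0.291% of all transcripts called higher, and 0 classes, beside 0.68%. That transcript was HNRNPA1-210, labelled NMD, with 147, 158 and 107 counts in the control nuclei, 209, 111 and 166 in the RNAi nuclei, 9.8 in the control cytoplasm and 0 in both RNAi cytoplasmic libraries (FDR 0.0994). That call was lost without control nuclear library 3, without either RNAi cytoplasmic library, without RNAi nuclear library 1 or 3, with the replicate number as a block and in limma.

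A further 30 hnRNP and related RNA-binding protein genes were counted as a list. In the ratio change 8 of them rose, beside 10.4% of all genes, and 1 fell, with a median of -0.03. The 8 were MATR3 (1.84, SE 0.24), PTBP2 (1.71, SE 0.35), PTBP3 (1.13), FUBP1 (0.98), HNRNPH3 (0.83), FUBP3 (0.69), HNRNPA3 (0.61) and HNRNPR (0.53), and PTBP1, a polypyrimidine tract-binding splicing repressor, fell by 0.53. MATR3, a nuclear matrix protein, was at 47.5 CPM in the control cytoplasm and at 18.5 and 15.1 CPM in the RNAi cytoplasm, with 23.9 to 29.6 CPM in the control nuclei and 30.9 to 39.9 CPM in the RNAi nuclei. In the nucleus, beside 4.89% of all genes called in either direction, 1 of the 30 fell and 0 rose. It was HNRNPLL, a paralogue of HNRNPL, at 6.5, 6.5 and 6.4 CPM in control and at 4.5, 4.7 and 4.1 CPM in RNAi nuclei (-0.55, SE 0.15, FDR 0.0783). In control cells 18 of the 30 were lower in the nucleus, beside 22.7% of all genes, and 0 were higher, with a median of -0.69. In the cytoplasm 11 fell after RNAi, beside 14.2% of all genes, and 1 rose. Among 14 SR protein genes, the other main family of splicing regulators, 3 rose in the ratio, beside 10.4% of all genes, and 0 fell. Their median was 0.20, and 0 were called in the nucleus.

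**Figure D5:**
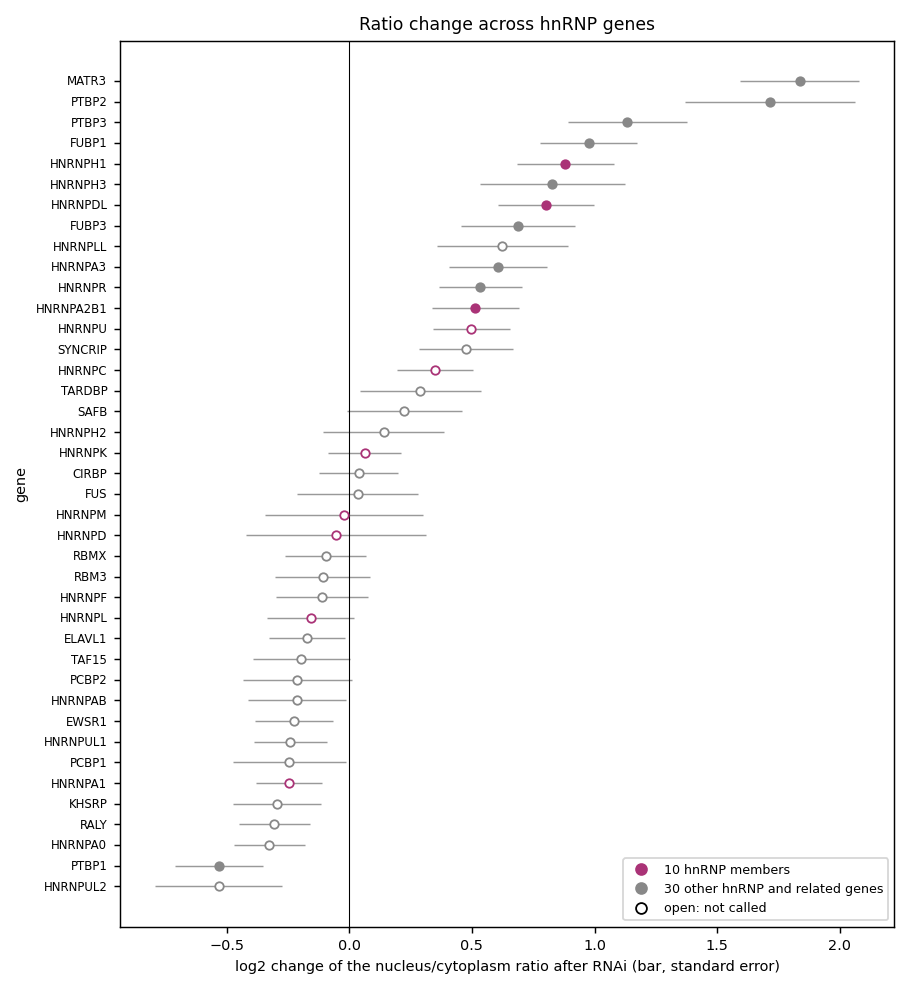
Log2 change of the nucleus to cytoplasm ratio after RNAi for the 10 members and the 30 other genes of the list, sorted, with standard errors; filled points were called and open points were not. HNRNPH1 (0.88) and HNRNPDL (0.80) lie below MATR3 (1.84), PTBP2 (1.71), PTBP3 (1.13) and FUBP1 (0.98).

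The members did not share a single profile. Against the mean of their standardized levels over the 9 samples, Pearson's r ran from 0.10 for HNRNPH1 to 0.96 for HNRNPA2B1, with HNRNPM at 0.87 and HNRNPC at 0.86. The genes outside the list with the profile most like this mean were PAFAH1B1 (r = 0.98), RFK (0.97), TTC1 (0.97), DYNLT2B (0.97) and SYAP1 (0.96). These correlations describe 9 libraries that fall into 4 groups and share the fraction as their main difference. The longest final exon over all listed transcripts of a member, of whatever class, had 1091 to 4707 bases with a median of 2485. Over all genes tested the median was 1756. For HNRNPM it was the single exon of HNRNPM-216, with 1809 bases, of which 1389 are intronic in the reference transcript. A gene with more listed transcripts also has more exons to take the longest from. These lengths therefore need not be those of the final exons of the spliced mRNAs.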

How the data were processed

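Nuclear and cytoplasmic RNA of HEK293 cells was sequenced after control or WTAP and KIAA1429 siRNA, and 9 libraries were analysed. The authors trimmed reads with cutadapt and quantified Ensembl transcripts of hg19 with salmon; its version is not given in the sources used here. The deposited estimated counts (not whole numbers) and TPM values per transcript were used, with the effective lengths, in bases, for 1 alternative. Transcripts were assigned to genes and classes by GENCODE 44 on GRCh37; 85.1% matched, holding 83.07% to 88.31% of counts, and the others were not used here. Counts were summed per gene and rounded, so a gene's count misses the reads of unmatched transcripts. At these depths 3 counts are 0.19 to 0.303 CPM.

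edgeR 4.0.16 (TMM, quasi-likelihood test, R 4.3.3) was fitted to 16181 genes with at least 10 counts in at least 3 samples, as 4 groups without a block, with Benjamini-Hochberg adjusted p-values (FDR). Transcript and class usage was tested with edgeR's diffSpliceDGE on 38779 transcripts and 16334 classes. DESeq2 1.42.0 and limma 3.58.1 were alternatives. Code was tested on simulated data. Intervals and floors cover counting error only. HNRNPA1 has 74 annotated processed copies, whose counts came to at most 4.73% of its own, and those of the other members to at most 1.79%; reads could be split between them. Replicate libraries correlated at 0.9695 to 0.9838 and differed by more than sampling noise (chi-square per degree of freedom of 5.09 or more), so each was counted as 1 sample.

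The members and lists were chosen with earlier results of these data known. Named transcripts were, per member, that with the highest mean TPM share, the NMD or retained intron one with the highest share of at least 1%, and each of at least 5% called in a usage comparison; HNRNPH1-210, HNRNPL-206, HNRNPL-207, HNRNPA1-210, HNRNPDL-203 and HNRNPDL-204 were added after their values were seen. A further intron sequence is not reported here.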

Additional observations from a re-analysis of the deposited data

Results flagged for a closer look

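A test of the difference between the fractions passed for 4 member results, the change of the nucleus to cytoplasm ratio after RNAi on the log2 scale. These were HNRNPH1 (0.88, SE 0.20, FDR 0.0207), HNRNPDL (0.80, SE 0.20, FDR 0.0275), HNRNPA2B1 (0.51, SE 0.18, FDR 0.0874) and the usage of the transcript HNRNPA1-210 (6.5, FDR 0.0994). All 4 rest on the single control cytoplasmic library, and the last on 9.8 estimated counts in it against 0 in both RNAi cytoplasmic libraries, so that its fitted value depends on the prior count and is no bound. HNRNPH1 and HNRNPDL were called in all 20 alternatives and HNRNPA2B1 in 7 of 20, and not with the replicate number as a block (0.46).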

How the results depend on the processing

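The single control cytoplasmic library could not be left out of any comparison that uses it, and 3 counts set a floor of 0.19 to 0.303 CPM. Of 1777 values recomputed under an alternative, 164 of 180 counts and 1433 of 1597 single values kept their direction and side of the threshold, and 81 single values changed sign. The cause was not tested. Members called between the fractions of control cells went from 5 to 8 with an average transcript length offset, while all genes called went from 8217 to 7517 of 16181. With limma's diffSplice, 4 transcripts and 3 classes were called in the nucleus in place of 0. Over all features the calls went from 229 to 480 of 38779 transcripts and from 20 to 310 of 16334 classes. The 1 transcript called in the ratio became 0 at FDR under 0.05, in limma, with at least 10 counts in every sample and with the replicate block. That strict filter, which tests fewer features, left 9 transcripts and 9 classes called between the fractions of RNAi cells, against 37 and 16. Of all features tested under it, 1198 of 14085 transcripts and 1242 of 6452 classes were called there. Leaving out 1 replicate gave 0 to 1 transcripts and 0 to 1 classes in the nucleus and in the ratio.

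Sign changes in the nucleus were HNRNPC at 0.003 with DESeq2 and with its size factors, 0.021 with the strict filter, 0.018 with the length offset, 0.008 with library size only, and 0.088 and 0.089 on log2(TPM + 1) and log2(TPM + 0.1). On those TPM scales HNRNPM was at 0.084 and 0.087, HNRNPA1 at 0.036 and HNRNPD at 0.097 and 0.104, and without a filter HNRNPDL was at -0.021. In the ratio, HNRNPM was at 0.084 (strict filter), 0.484 (offset), 0.246 (library size only), 0.818 and 0.838 (TPM), and HNRNPD at 0.05, 0.215, 0.215, 0.603 and 0.625. HNRNPL was at 0.128 with library size only and at 0.152 and 0.153 on TPM, and HNRNPA1 at 0.035, 0.092 and 0.092. Between the fractions of RNAi cells, HNRNPL was at 0.001 (strict), 0.093 (library size) and 0.158 (TPM), HNRNPA2B1 at 0.053 and 0.139 (strict, library size), HNRNPD at 0.094 (library size), HNRNPU at -0.174 (offset) and HNRNPM at 0.366 and 0.375 (TPM); in the strict filter HNRNPA2B1-202 was at 0.258 and HNRNPA1-206 at 0.064. In control cells HNRNPL was at 0.056 (strict) and 0.005 (TPM). In the cytoplasm HNRNPA1 was at -0.069 (library size) and -0.055 (TPM).

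Leaving out 1 replicate also turned signs. In the nucleus the ranges were -0.069 to 0.028 for HNRNPC, -0.304 to 0.13 for HNRNPD, -0.058 to 0.091 for HNRNPDL, -0.038 to 0.123 for HNRNPH1 and -0.405 to 0.018 for HNRNPM. In the ratio they were -0.321 to 0.302 for HNRNPD and -0.162 to 0.204 for HNRNPM. In the cytoplasm they were -0.415 to 0.213 for HNRNPD and -0.131 to 0.027 for HNRNPL. Between the fractions they were -0.457 to 0.152 for HNRNPD in RNAi cells, -0.362 to 0.05 for HNRNPD and -0.065 to 0.006 for HNRNPL in control cells, -0.152 to 0.482 for HNRNPD-209 and -0.129 to 0.166 for HNRNPDL-202.

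Among all called genes, the share called higher moved with the scaling. In the nucleus it was 50.5% with TMM, 67.8% with library size only and 87.4% and 81.8% on the TPM scales; in the ratio 56.9%, 93.2%, 97.2% and 95.4%; between the fractions of RNAi cells 56.9%, 75.5%, 83.3% and 84.3%; in the cytoplasm 42.1%, 11.9%, 6.62% and 8.96%.

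Samples with the same replicate number correlated in their deviations from the group means at 0.029 to 0.176, with 4 of 7 pairs over 0.1, and other pairs at -0.174 to 0.052. Of 8 samples 7 correlated best with their own number, a hint from the data and not from the design. The samples were taken to share only a number. With the number as a replicate block, 0, 2, 4, 5 and 4 members were called, against 0, 3, 3, 5 and 4 without it. The order is the nucleus, the ratio, the fractions of RNAi cells, those of control cells, and the cytoplasm. In the same order 1035, 4038, 9330, 8061 and 4720 of all 16181 genes were called with the block. Without it they were 792, 2953, 9350, 8217 and 3984. Under the replicate block HNRNPL was at 0.056, HNRNPD at 0.045 and HNRNPH1 at 0.003 between the fractions of control cells, HNRNPM at 0.019, HNRNPL at 0.071 and HNRNPD at 0.153 in the cytoplasm, and HNRNPDL-202 at -0.04, each with the sign turned.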
